A study of Oryza sativa with 40 samples.

Results

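The transcripts described here are those that reached their highest level at far apart times of day in rice flag leaves and seedling leaves and that varied strongly over the day in both. They were taken from 57194 rice probe sets, each a group of short probes made to read a transcript, though some match several. Of these, 21726 had a mean signal of at least 100 over the 20 arrays of each tissue and are called eligible below. For every eligible probe set log2(signal + 32) was averaged in each tissue to 6 clock hours, the 2 seedling arrays at 44 h were left out of these means, and the clock hour of the highest mean was taken. The 2 highest hours lay 8 h or 12 h apart for 6132 eligible probe sets (28.2%). After 19 probe sets on a list published with the study had been left out, the 150 with the largest value of the smaller of their 2 daily ranges were kept, where a range is the highest minus the lowest of the 6 means. The timing and the ranges chose the 150 probe sets, so they are given as a description without a test. Of the 150 probe sets, 109 have 1 gene in the array annotation (102 genes on all 12 chromosomes), 1 has several and 40 have none, and 24 of the genes carry a name.

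Plants keep daily rhythms through a circadian clock and through direct responses to light, temperature, water and sugars. The clock times many genes by interlocked loops of transcription factors that peak at set hours, whereas genes of defence, hormone and stress responses follow both the clock and the conditions of the day. Jasmonate is a hormone of wounding and defence, TIFY (JAZ) proteins repress its responses and are themselves induced by it, and heat shock factors switch on chaperone genes when proteins unfold.

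Leaves of Nipponbare rice were sampled every 4 h at 10 time points from 8 h to 44 h, counted from the first midnight, with 2 biological replicates in each tissue, on 20 arrays of flag leaves and 20 of seedling leaves. Flag leaves, the uppermost leaves of the plant, came from plants 3 months old that had grown in a field and were then kept under 32 °C in the day and 30 °C in the night. Seedling leaves came from plants about 17 days old that had grown in a greenhouse under 28 °C in the day and 25 °C in the night, and both had 12 h of light. The light was on from 8 h to 20 h, so the samples at 8 h and 32 h were taken at the end of the night and those at 20 h and 44 h at its start. Tissue, plant age and growth conditions cannot be told apart in this design, and whether the replicates came from separate plants is given no further than the word biological, so p-values measure the spread between these samples.

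Mean signals per array were 753 to 877 in flag leaves and 696 to 733 in seedling leaves, and precision is limited by how many arrays there are. Genes for the small subunit of Rubisco, a defining product of leaves, summed to between 38125 and 57013 on the flag leaf arrays and between 27860 and 38488 on the seedling arrays. The 3 floral MADS-box probe sets looked up summed to between 148 and 628.6 in flag leaves and between 17 and 124 in seedling leaves. The 9 probe sets of the seed storage proteins glutelin and prolamin summed to between 1068 and 4362 in flag leaves and between 1130 and 1731 in seedling leaves, and the part of these transcripts in the results was not tested. The replicate arrays of seedling leaves at 40 h stood apart from the other pairs of that tissue: 32 of the 150 probe sets differed there by more than 1 on the log2 scale between replicates, against 3 to 8 at the other time points. In flag leaves between 11 and 36 of the 150 differed by that much, most at 12 h and 44 h.

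The 150 probe sets were not simple mirror images between the tissues. Across the 6 clock hours the correlation of the flag leaf with the seedling profile had a median of -0.01 and ran from -0.92 to 0.95, and it was below 0 for 75 of 150. The same correlation, over the same 6 points for each probe set, had a median of 0.47 among eligible probe sets. Most of those had hours less than 8 h apart, and the choice by far apart hours itself lowers the correlation. The lower median of the 150 is therefore no separate result. At the hour of the highest seedling mean, the flag leaf mean stood at a median of 30.2% of its own daily range. At the hour of the highest flag leaf mean, the seedling mean stood at a median of 37.9% of its range. The tissues were thus apart in their highest hours but not opposed over the whole course of the day. The hours lay 8 h apart for 115 probe sets and 12 h apart for 35. Of the 6132 eligible probe sets with hours 8 h or 12 h apart, 1586 lay 12 h apart. The share was 7.3% of all eligible probe sets, which include those that could not be taken.

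The daily range of the 150 probe sets had a median of 2.70 on the log2 scale in flag leaves (1.57 to 7.11) and 1.98 in seedling leaves (1.57 to 3.88), and 117 had the larger range in flag leaves. Over eligible probe sets the median was 1.00 in flag leaves and 0.62 in seedling leaves. The last probe sets taken, which have no gene, had smaller ranges of 1.57 and 1.57, and the first ones left out, of LOC4327888 and LOC4332954, had 1.56 and 1.56.

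Noon in flag leaves combined with dusk in seedling leaves was the most frequent pair of highest hours, with 43 of 150 probe sets. It was also the most frequent among the 6132 eligible probe sets with hours 8 h or 12 h apart, with 14.7% of them. Late night in flag leaves (4 h) combined with dusk in seedling leaves held 18 (against 8.28% of those 6132). The pair of 8 h with 16 h held 14 (against 4.62%). In flag leaves 63 probe sets were highest at 12 h (42.0%, against 17.8% of eligible probe sets), 37 at 4 h (24.7%, against 19.4%) and 27 at 8 h (18%, against 18.2%). In seedling leaves 70 were highest at 20 h (46.7%, against 25.4% of eligible probe sets) and 27 at 16 h (18%, against 10.8%). These shares by single hour also count eligible probe sets with hours less than 8 h apart, which could not be taken. They are therefore not the background of the choice itself.

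**Figure D1:**
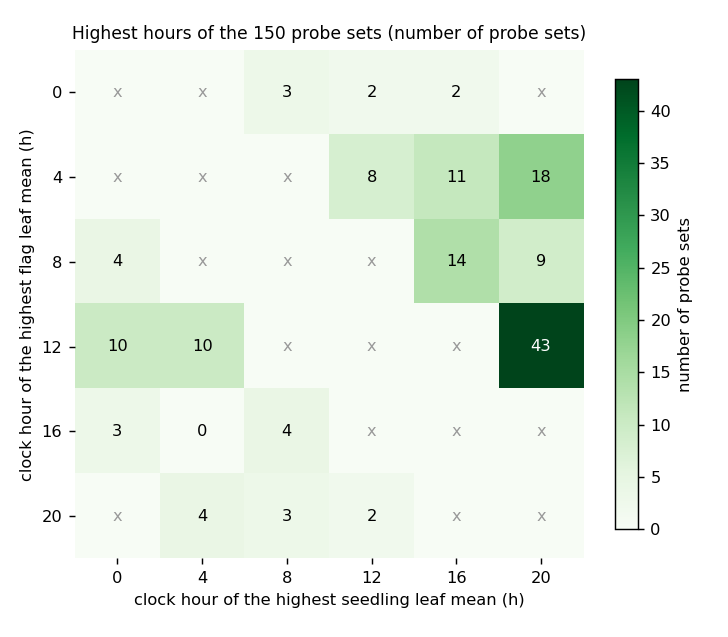
Number of the 150 probe sets for each pair of highest clock hours, with the hour in flag leaves down the vertical axis and the hour in seedling leaves along the horizontal axis (h). Cells marked x are less than 8 h apart and could hold none, and the fullest cell, 12 h in flag and 20 h in seedling leaves, holds 43.

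**Figure D2:**
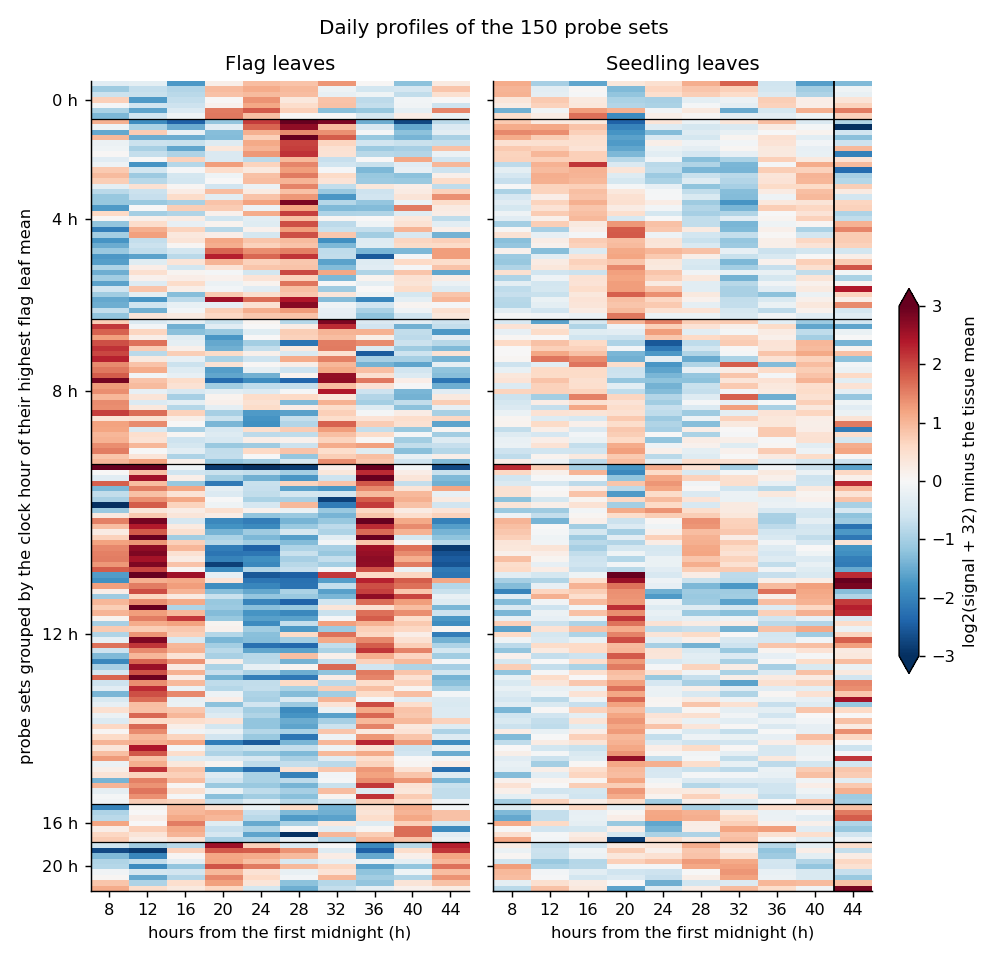
Mean log2(signal + 32) of 2 replicates at each of 10 time points (h, horizontal axis) minus the mean of that tissue, for the 150 probe sets (1 line each) in flag leaves (left) and seedling leaves (right), with colours cut at -3 and 3. Lines are grouped by the highest hour in flag leaves, and the black vertical line sets off the seedling 44 h arrays, which entered neither the means by clock hour nor the mean of the tissue drawn here.

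The hour 20 h of seedling leaves rests on 2 arrays of the first day, because the 44 h arrays were left out of the means. The 44 h arrays had no part in the hours and ranges that chose the probe sets, but they entered the mean signal that had to reach 100. Without them 148 of the 150 probe sets reached it, and the choice run again with that floor, an alternative added after seeing the data, took the same 148. Of the other 2, LOC4335529 was highest at 20 h in seedling leaves. Among the 70 probe sets highest at 20 h in seedling leaves, the 44 h mean was below the 20 h mean for 56, by more than 1 on the log2 scale for 29, and the median of 44 h minus 20 h was -0.67 (-2.87 to 1.21), and it was -0.71 over the 69 that reached the floor without the 44 h arrays. Among the 5510 eligible probe sets that were highest at 20 h, the median was -0.48 and 84.8% were below 0. At 44 h, 45 of the 70 stood above the middle of their seedling range. With the 44 h arrays in the 20 h mean, 47 of the 70 stayed highest at 20 h and 53 kept hours 8 h or 12 h apart, and of all 150 probe sets 132 did.

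**Figure D3:**
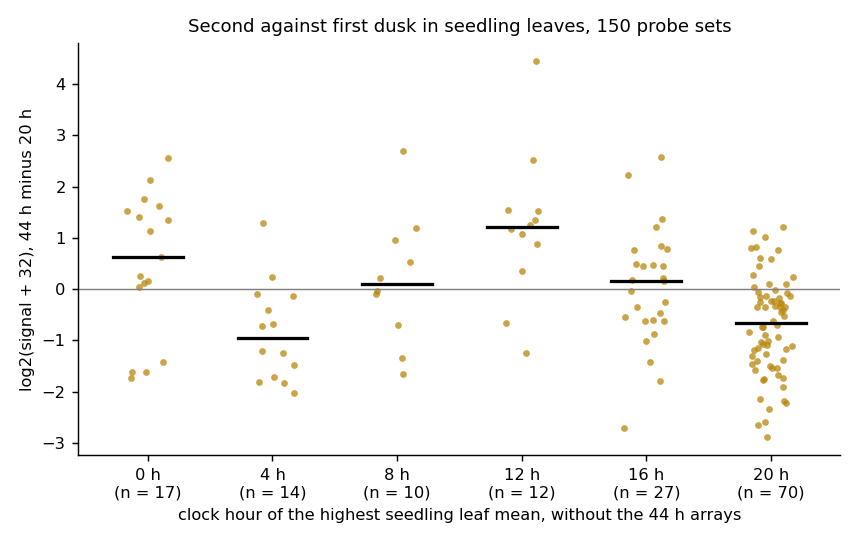
Mean log2(signal + 32) of seedling leaves at 44 h minus that at 20 h (vertical axis) for each of the 150 probe sets (points), by the clock hour of the highest seedling mean (horizontal axis, h), with black bars at the medians. For the 70 probe sets highest at 20 h the median is -0.67 and 56 lie below 0.

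Taken alone, replicate 1 put the highest hours 8 h or 12 h apart for 125 of the 150 probe sets and replicate 2 for 121. Both replicates did so for 99, or 66% (49.4% of the eligible probe sets with that gap). Averages of 8 h to 28 h only kept the gap for 113, and averages that took the second day in place of the first kept it for 126. These averages are not of separate days, since both hold the 24 h and 28 h arrays and the seedling 20 h arrays. For the 70 probe sets highest at 20 h in seedling leaves, that hour thus rests on the same arrays in both. The gap was kept in each replicate, in both of these averages and with the 44 h arrays for 68. Of the 28 named probe sets 19 kept the gap under all 11 settings of the rule that were tried, and the least stable kept it under 8. Over the time points the replicate series of a probe set had a median correlation of 0.91 in flag leaves (n = 10 time points, lowest 0.10) and 0.93 in seedling leaves (n = 9, lowest 0.51).

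Among the genes of jasmonate responses, OsTIFY11b (LOC4331834, chromosome 3), a TIFY protein, read on its probe set ending in s_at 5694 and 1590.5 on the replicate flag leaf arrays at 12 h and 1411 and 927 at 36 h, against 482 and 386 at 12 h and 429.7 and 397 at 36 h on the seedling arrays. At dusk it read 199 and 89.4 at 20 h and 181 and 91.2 at 44 h in flag leaves, against 2681 and 2144 at 20 h and 2360.2 and 1941 at 44 h in seedling leaves. The arrays of the tissues did not overlap at any of these 4 time points, and the order of the tissues turned between noon and dusk on both days. In seedling leaves the 44 h arrays, which had no part in the hour of the highest mean, overlapped those at 20 h. Its other probe set was highest at the same hours, with 1637 and 679 in flag leaves at 12 h and 918 and 795 in seedling leaves at 20 h.

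OsTIFY11e (LOC4348531, chromosome 10), of the same family, read 119 and 85.5 at 20 h and 66.3 and 42.5 at 44 h in flag leaves, against 316 and 402 at 20 h and 526 and 745 at 44 h in seedling leaves, which were again higher at dusk without overlap. In flag leaves its noon mean rested on replicate 1, with 963 and 104 on the arrays of replicates 1 and 2 at 12 h, and 505 and 70.3 at 32 h. OsTIFY6b (LOC4347000, chromosome 9) was highest near 8 h in flag leaves, with 670.4 and 1207 at 8 h and 1284 and 1099 at 32 h, and at 20 h in seedling leaves, with 816 and 972. At 44 h seedling leaves read 261 and 315, below their 20 h arrays, and with the 44 h arrays kept the hours of OsTIFY6b lay only 4 h apart. Among 15 eligible TIFY probe sets of 13 genes, 9 (60.0%) had highest hours 8 h or 12 h apart, against 28.2% of all eligible probe sets, and 4 were among the 150.

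OsOPR5 (LOC4340485, chromosome 6) belongs to the oxophytodienoate reductases, a family with members in jasmonate synthesis. It was highest late in the night in flag leaves, with 891 and 528 at 28 h, and read 42.7 and 59.6 at 8 h. In seedling leaves it was highest at dusk, with 2245 and 2103 at 20 h and 1891 and 1723 at 44 h, against 389.8 and 249.7 at 32 h. At 28 h both flag leaf arrays were above the seedling arrays, which read 483 and 518, and at the other 9 time points both were below them.

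**Figure D4:**
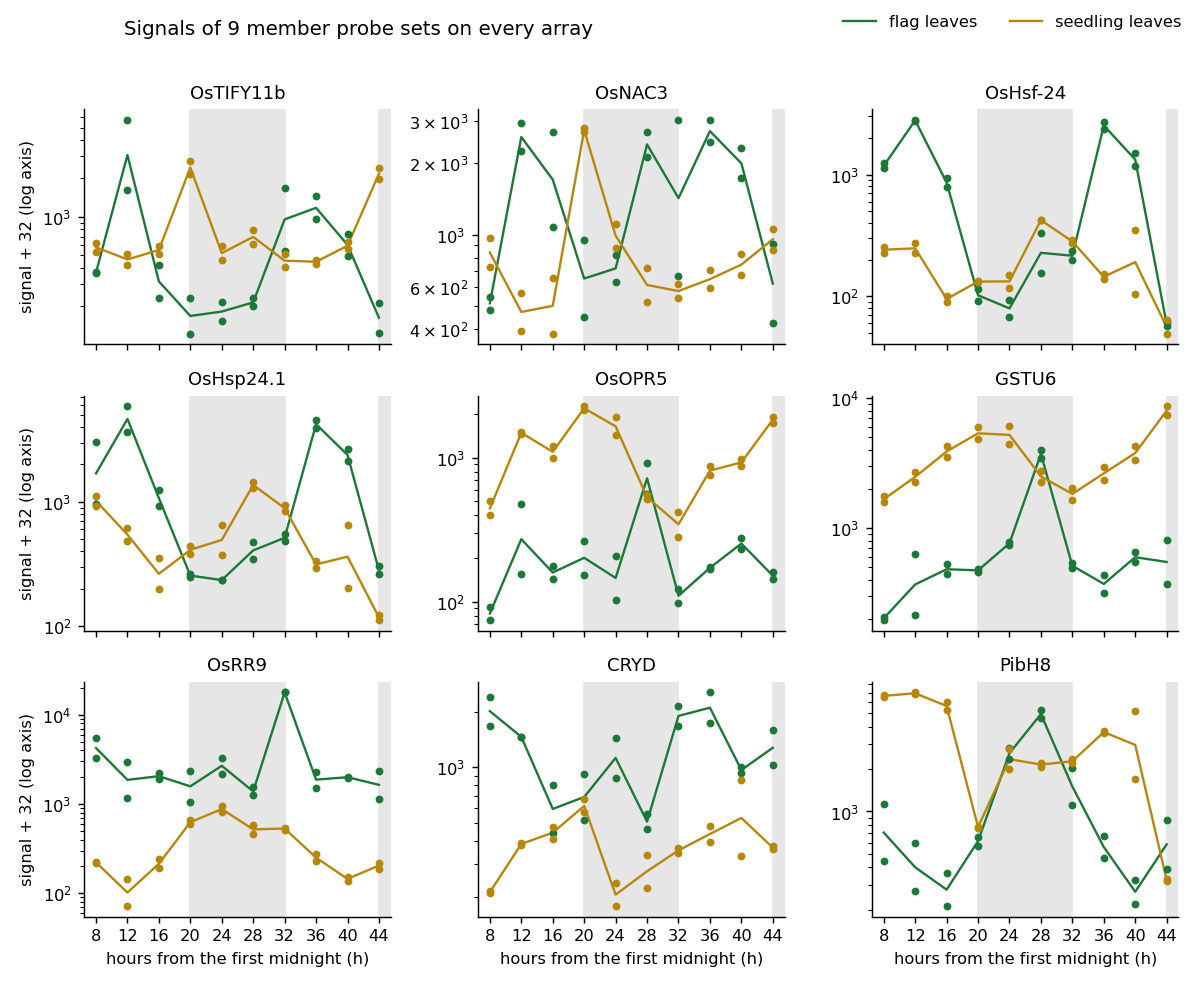
Signal plus 32 (log axis) of 9 member probe sets in flag leaves (green) and seedling leaves (ochre) at 10 time points (h), with 1 point per replicate array, lines through the mean of log2(signal + 32) and grey bands for darkness. OsTIFY11b, OsNAC3, OsHsf-24 and OsHsp24.1 are highest at noon in flag leaves, where seedling leaves are highest at dusk for the first pair and in the night for the other pair.

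OsNAC3 (LOC4342753, chromosome 7), a transcription factor of the NAC family, read 2211 and 2934 at 12 h in flag leaves and 360.2 and 535 in seedling leaves. At 20 h the order was turned, with 417 and 915 in flag leaves and 2676 and 2780.0 in seedling leaves. On the second day flag leaves read 2996 and 2431 at 36 h, whereas seedling leaves at 44 h read 832 and 1025 and so did not return to their level of 20 h. The replicate flag leaf arrays at 32 h were far apart, at 3009 and 635.

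DREB1A (LOC4347620, chromosome 9) is a transcription factor of cold responses. Flag leaves read 545 and 448 at 28 h, against 55.9 and 59.3 in seedling leaves, and at 20 h they read 116 and 132, against 440.5 and 434. Replicates disagreed in flag leaves at 32 h, with 787 and 38.5, and at 12 h, with 502 and 159. Its 44 h arrays in seedling leaves read 156 and 227, lower than at 20 h and higher than at every other seedling time point.

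OsHsf-24 (LOC4347637, chromosome 9), a heat shock transcription factor, was represented by 3 probe sets that were all highest at noon in flag leaves and at 4 h in seedling leaves. On the one with the largest seedling range flag leaves read 2768 and 2733 at 12 h and 2654 and 2343 at 36 h, against 193 and 241 at 12 h and 106 and 120.3 at 36 h in seedling leaves. At 28 h flag leaves read 124 and 300.1 and seedling leaves 392 and 389.6, the highest seedling arrays of this probe set.

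OsHsp24.1 (LOC4330786, chromosome 2), a small heat shock protein, had the same pair of hours. It read 3635 and 5846 at 12 h and 4505 and 3881 at 36 h in flag leaves, against 581 and 451 at 12 h and 302 and 263 at 36 h in seedling leaves. At 28 h flag leaves read 313 and 447, against 1419.9 and 1250.4 in seedling leaves. The tissues did not overlap at these 3 time points, and their order at 28 h was opposite to that at noon. Among 20 eligible heat shock factor probe sets 10 had highest hours 8 h or 12 h apart, as had 10 of 24 of heat shock proteins. The share over all eligible probe sets was 28.2%. Both counts take in members, whose hours lie 8 h or 12 h apart by the choice: the 3 of OsHsf-24 and the 1 of OsHsp24.1.

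Of the genes of other hormones, OsRR9 (LOC4349747, chromosome 11), a response regulator of cytokinin signalling, read 5449.6 and 3238 at 8 h and 17734 and 17703 at 32 h in flag leaves, so the end of the second night stood far above that of the first. In seedling leaves it was highest at 777 and 922 at 24 h and lowest at 40 and 113 at 12 h. All 20 flag leaf arrays were above all 20 seedling arrays (between 1022 and 17734 with a median of 2166 in flag leaves, between 40 and 922 with a median of 204 in seedling leaves). OsRR10 is a close relative, and whether it shares these probes was not tested.

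OsGH3-2 (LOC4326893, chromosome 1) encodes an enzyme that conjugates auxin to amino acids. Flag leaves read 4142 and 3887 at 8 h and 5016 and 3565 at 36 h, against 197 and 297 at 8 h and 248 and 320.3 at 36 h in seedling leaves. At 20 h flag leaves read 255 and 219 and seedling leaves 564 and 713, and at 44 h flag leaves read 639.8 and 242 and seedling leaves 1909 and 1584. Flag leaves were thus higher at 8 h and 36 h and seedling leaves at both dusks, without overlap at these 4 time points.

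Among genes of glutathione and redox reactions, GSTU6 (LOC4349207, chromosome 10), a glutathione transferase, was high at a single time point in flag leaves, with 3952 and 3444 at 28 h, while its other flag leaf arrays did not pass 780.1. In seedling leaves it followed a broad course, with 1719 and 1551 at 8 h, 5949 and 4781 at 20 h, 6069 and 4435 at 24 h and 2010.0 and 1609 at 32 h. Seedling leaves at 44 h read 8645 and 7383, above every other seedling array. GRXS9 (LOC9269297, chromosome 5), a glutaredoxin, read 4999 and 7998 at 12 h in flag leaves and 2873 and 2411 in seedling leaves, and at 44 h 388 and 179 in flag leaves, against 4280.4 and 3999 in seedling leaves. The tissues overlapped at neither hour and were in opposite order. GRXC1 (LOC4325734, chromosome 1), of the same family, was less repeatable, with 762 and 98.4 on the replicate flag leaf arrays at 20 h. Seedling leaves gave 2579.5 and 2197 at 12 h and only 948 and 812 at 36 h.

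Photosynthesis was represented by PSII-S (LOC4337500, chromosome 4), which encodes the PsbS protein that lets leaves dissipate excess light. Flag leaves read 18054 and 33905 at 12 h and 24893 and 28235 at 36 h. Seedling leaves read 4831 and 4898 at 12 h and 8792 and 7379 at 20 h on the first day, but 10693 and 9112 at 36 h and 1431 and 1118 at 44 h on the second. The dusk maximum of the first day was therefore absent on the second, when both tissues were highest at noon. The symbol list of light harvesting and photosystem genes did not match PSII-S and found 9 other eligible probe sets, none of which had highest hours 8 h or 12 h apart. With PSII-S it was 1 of 10, against 28.2% of all eligible probe sets.

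CLA1 (LOC4338768, chromosome 5) encodes the first enzyme of the plastid isoprenoid pathway. It read 389 and 229.9 at 16 h in flag leaves and 169 and 155 in seedling leaves, and at 8 h 217 and 237 in flag leaves, against 525 and 448 in seedling leaves. Another probe set of the gene was highest at 8 h in both tissues. Its mean signals were 927 in flag leaves and 1061 in seedling leaves, against 110 and 225 for the probe set given here. CRYD (LOC4341749, chromosome 6), a cryptochrome of the DASH type, a group known for repair of ultraviolet damage in DNA, was highest in flag leaves before the light came on, with 1643 and 2377 at 8 h and 1646 and 2104 at 32 h, and it stood as high at the second noon, with 1702 and 2504 at 36 h. In seedling leaves it read 182 and 178 at 8 h and 638 and 538 at 20 h, and at 40 h its replicates were far apart, at 825 and 299.

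Of the metabolic genes, OsADC1 (LOC4340008, chromosome 6), an arginine decarboxylase of polyamine synthesis, read 2508 and 844 at 8 h and 2373 and 2023 at 32 h in flag leaves. Its seedling arrays differed between replicates at most time points, with 1664 and 2417 at 20 h and 2859 and 5919.8 at 44 h, and by replicate 2 alone the highest hours of both tissues were the same. OsASMT1 (LOC4346795, chromosome 9), which is named for the methyltransferase of melatonin synthesis, had its highest seedling mean at clock hour 12 h, with 2558 and 2086 at 12 h and 1899 and 1745 at 36 h. Single time points of seedling leaves were higher, with 2673 and 2253 at 32 h and 8943 and 9400.1 at 44 h. In flag leaves the highest mean of OsASMT1 was at clock hour 20 h, with means of log2(signal + 32) of 8.87 at 20 h and 8.49 at 44 h. The single time point of 8 h was higher there, at 9.37. By replicate 1 alone and by 8 h to 28 h alone its hours lay 4 h apart. OsITPK3 (LOC4333967, chromosome 3), an inositol phosphate kinase, had replicate series that correlated at 0.96 in flag leaves and 0.99 in seedling leaves. Its flag leaf arrays read 543.5 and 864.9 at 32 h and 3814.5 and 5670.9 at 44 h. It read 6073 and 6090.1 at 24 h in flag leaves and 1132 and 1122 in seedling leaves, and at 16 h 1321 and 1169 in flag leaves, against 2953 and 2924 in seedling leaves. With the 44 h seedling arrays, which read 3739 and 3443, its hours lay 4 h apart. They also lay 4 h apart in the averages that took the second day in place of the first.

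CML16 (LOC4325693, chromosome 1), a calmodulin-like calcium sensor, read 5823 and 2936 at 12 h in flag leaves and 2924 and 2265 in seedling leaves. At 20 h it read 1036 and 1744 in flag leaves, against 8702 and 6338 in seedling leaves, and at the second dusk 959.5 and 630.2 in flag leaves, against 8471 and 7458 in seedling leaves. The dusk difference recurred on both days, whereas the order at noon did not. At 12 h the lower flag leaf array nearly met the higher seedling array, and at 36 h flag leaves, at 1870.2 and 1777, were below seedling leaves, at 3322 and 2696. OsC3H54 (LOC4344566, chromosome 8), a CCCH zinc finger protein, read 3939 and 5348 at 8 h in flag leaves but 1189.8 and 2051 at 32 h, and 1194 and 1168 at 12 h and 1386 and 952 at 40 h in seedling leaves. At 36 h flag leaves read 207 and 143, below the 839.9 and 1035 of seedling leaves. By replicate 2 alone and by 8 h to 28 h alone the hours of OsC3H54 lay 4 h apart.

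PibH8 (LOC4346183, chromosome 8), named for its likeness to the rice blast resistance gene Pib, had 2 probe sets among the 150. On the one with the larger ranges flag leaves read 5241 and 4574 at 28 h and 239.9 and 560.1 at 12 h, whereas seedling leaves read 2195 and 2053 at 28 h and 6987 and 6787 at 12 h. The tissues did not overlap at either hour and were in opposite order. At 44 h it read 357 and 844 in flag leaves, against 290.5 and 298 in seedling leaves.

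The 2 probe sets with the largest smaller range have no gene name and are given here because of their rank. LOC4325662 (chromosome 1) had a smaller range of 3.80 and read 5503 and 5192 at 12 h in flag leaves and 117 and 133 in seedling leaves, and at 20 h 199 and 1035 in flag leaves, against 2017 and 2047 in seedling leaves. Seedling leaves read 1004 and 1084 at 44 h and at most 233 outside dusk. By replicate 2 alone its hours lay 4 h apart, and another probe set of this gene was highest at 0 h in both tissues. LOC4335529 had a smaller range of 3.49 and read 571 and 946 at 36 h in flag leaves and 50.1 and 41 in seedling leaves, and 117 and 257 in flag leaves at 20 h, against 363 and 401 in seedling leaves. Its seedling mean signal was 121 with the 44 h arrays, which read 664 and 540.1, and 67.1 without them. By replicate 2 alone and by 8 h to 28 h alone its hours lay 4 h apart. The gene has another eligible probe set with higher mean signals, 888 in flag leaves and 343 in seedling leaves, and a smaller range of 4.11, which was highest at 16 h in flag leaves and at 20 h in seedling leaves, only 4 h apart.

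Of 8 eligible probe sets of 7 clock genes none had highest hours 8 h or 12 h apart. OsLHY was highest at 8 h in both tissues, and PRR1, OsPCL1 and GI at 20 h in both. Counts for other families were 3 of 6 for NAC factors, 4 of 10 for response regulators, 10 of 39 for auxin genes (GH3, IAA and ARF), 6 of 18 for glutaredoxins, 15 of 51 for calmodulin-like, CIPK and CBL proteins, 11 of 54 for CCCH zinc finger proteins, 1 of 7 for glutathione transferases, 2 of 5 for oxophytodienoate reductases and 0 of 19 for aquaporins. These lists were found by symbol, are small and were read against the 28.2% of eligible probe sets as a description. Apart from clock genes and aquaporins, each list here counts in members, whose hours lie 8 h or 12 h apart by the choice. Several of these families were not planned as lists, so their shares are no independent test of the family.

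Probes of 1 gene did not always give 1 timing. The 102 genes have 36 further probe sets, of which 22 (19 genes) were eligible. Of these 22, 5 (22.7%) had highest hours 8 h or 12 h apart, against 28.2% of all eligible probe sets, and 4 had the very hours of the member. OsTIFY6b and CLA1 each have another eligible probe set that was highest at 8 h in both tissues. OsADC1 has one that was highest at 8 h in flag and 12 h in seedling leaves. These had higher mean signals than the members, in flag and seedling leaves 3875 and 4231 against 562 and 475 for OsTIFY6b. For OsADC1 they were 4176 and 11145 against 909 and 1841. The other probe set of LOC4325662 had lower ones, 244 and 323 against 1574 and 424. The ending s_at marks probe sets whose probes match several transcripts, and these made up 8.0% of the 150 and 7.75% of eligible probe sets. The ending x_at marks probes that may bind other transcripts too, and these made up 13.3% of the 150 and 14.8% of eligible probe sets. The values given for LOC4335529 and the leading ones of OsTIFY11b come from s_at probe sets, and those for LOC4325662 from an x_at probe set.

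Mean levels were compared by limma on the mean over 10 time points, with Benjamini-Hochberg adjustment over 24514 probe sets. Clock hours 0 h and 4 h weigh less in this mean, because only the other clock hours were sampled on both days. The level difference is therefore not free of timing. The fit took all arrays as independent, although arrays with the same replicate number deviated together within a tissue. The standard errors and p-values of this level comparison may therefore be too small. Of the 150 probe sets 124 differed between the tissues, 59 of them higher in flag leaves and 65 lower. Such differences were common on these arrays, where 77.1% of all tested probe sets were called, 39.4% higher and 37.7% lower. The median difference was -0.02 for the 150 and 0.02 for all, and in a cosine model of time it was -0.17 and 0.02. The median size without sign was 0.85 for the 150, 0.42 for all tested and 0.37 for eligible probe sets. A difference of more than 1 on the log2 scale was called for 27 higher and 36 lower in flag leaves, and the extremes were 4.53 and -4.12. Counts at that cut were not made for all tested or eligible probe sets. Whether their number or direction is particular to the 150 therefore cannot be read from them.

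OsRR9 was 3.08 ± 0.13 (standard error) higher on the log2 scale in flag leaves (limma adjusted p = 5.92e-17), CRYD 1.64 ± 0.11 (adjusted p = 2.15e-12) and OsGH3-2 1.42 ± 0.11 (adjusted p = 4.18e-11). On the side of seedling leaves, GSTU6 differed by -2.57 ± 0.11 (limma adjusted p = 9.02e-17), OsASMT1 by -2.36 ± 0.19 (adjusted p = 4.05e-11) and OsOPR5 by -2.35 ± 0.12 (adjusted p = 2.48e-15). All 3 OsHsf-24 probe sets were called higher in flag leaves, by 1.36 ± 0.11, 0.66 ± 0.09 and 0.89 ± 0.13, and OsHsp24.1 by 0.93 ± 0.14. OsTIFY11b was lower in flag leaves on both probe sets, by -0.71 ± 0.15 and -0.43 ± 0.11. PSII-S was higher by 1.15 ± 0.11 and OsNAC3 by 0.71 ± 0.16, and PibH8 was lower on both probe sets (-1.66 ± 0.14 and -1.14 ± 0.24).

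Of the 28 member probe sets named by the rule, 12 were called higher and 12 lower in flag leaves. The other 4 did not pass the test: OsTIFY6b at -0.01 ± 0.10 (limma adjusted p = 0.921), DREB1A at -0.01 ± 0.20 (adjusted p = 0.95), GRXC1 at -0.19 ± 0.22 (adjusted p = 0.442) and OsTIFY11e at -0.27 ± 0.21 (adjusted p = 0.24). Of the remaining names, OsC3H54 (1.01 ± 0.09) and OsITPK3 (0.29 ± 0.06) were higher, and GRXS9 (-0.81 ± 0.11), CLA1 (-0.95 ± 0.11), CML16 (-1.12 ± 0.14) and OsADC1 (-1.27 ± 0.17) were lower. In a cosine model of time the calls of OsHsp24.1 (0.48, limma adjusted p = 0.0553), OsNAC3 (0.54, adjusted p = 0.0535) and both smaller OsHsf-24 differences (0.25 and 0.43, adjusted p = 0.404 and 0.173) were lost. With replicate 2 left out of that model the calls of the largest OsHsf-24 difference (0.84, limma adjusted p = 0.0602), of the larger OsTIFY11b difference (-0.82, adjusted p = 0.126) and of the smaller one (-0.56, adjusted p = 0.185) were lost too. With replicate 1 left out OsTIFY11e passed the test (-0.78, limma adjusted p = 0.00935). The smaller OsTIFY11b difference was lost without the 44 h arrays (-0.18, limma adjusted p = 0.147) and after quantile normalization (-0.23, adjusted p = 0.0538). The members highest at 4 h in flag leaves were more often called lower (20 of 37) than higher (11), and those highest at 12 h gave 27 higher and 22 lower of 63. The same counts were not made for eligible probe sets, so no link of timing with level can be read from them.

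**Figure D5:**
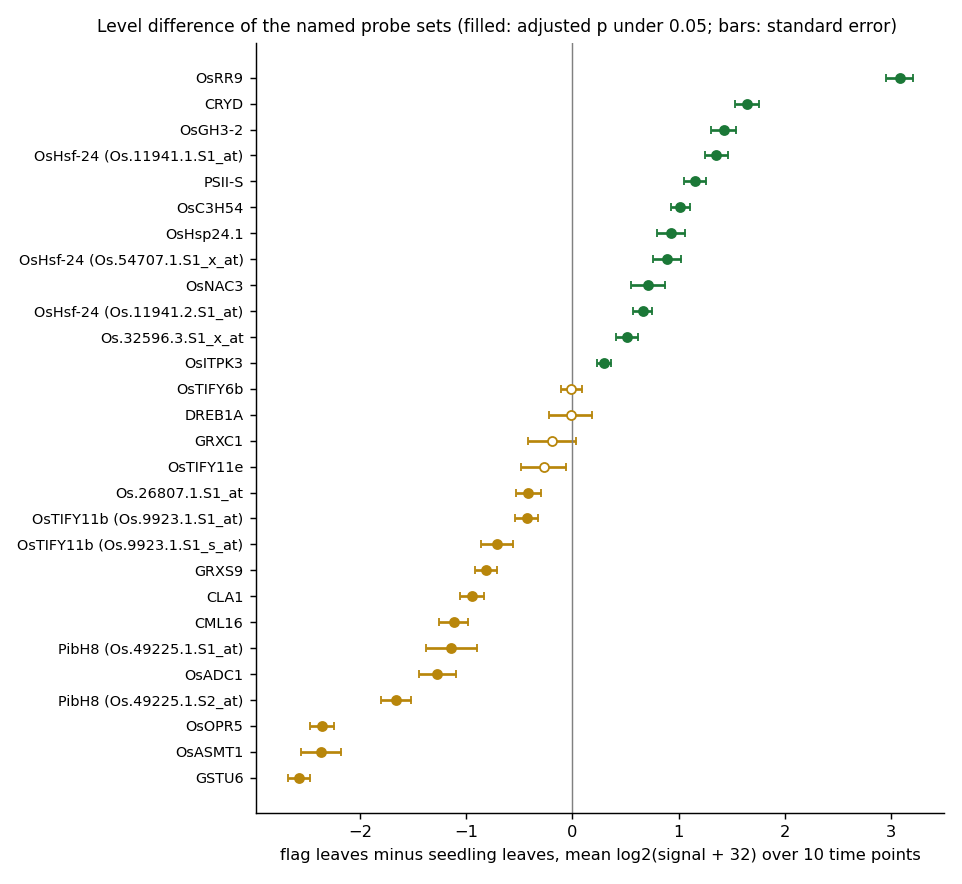
Difference in mean log2(signal + 32) over 10 time points, flag leaves minus seedling leaves (horizontal axis), for the 28 named member probe sets, with standard errors from limma and filled points where the adjusted p is under 0.05. OsRR9 stands highest at 3.08 ± 0.13 and GSTU6 lowest at -2.57 ± 0.11, and the 4 open points lie between -0.27 and -0.01.

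The second day was set against the first in each tissue, as the mean of 32 h, 36 h and 40 h minus that of 8 h, 12 h and 16 h, which the averaging over days in the choice did not use. In flag leaves limma called 24 of the 150 probe sets, 9 higher and 15 lower on the second day, against 4.64% of all tested (2.49% higher and 2.15% lower). In seedling leaves it called 8, with 4 in each direction, against 1.65% (0.608% higher and 1.04% lower). The day difference itself differed between the tissues for 20, more upward in flag leaves for 6 and more downward for 14, against 2.24% of all tested (1.25% more upward and 0.983% more downward). With the replicate number as a block the counts were 38 in flag leaves and 20 in seedling leaves, against 10.96% and 4.70% of all tested. With a single replicate (replicate 1 or 2 left out, hour and day terms in limma) no member was called in either tissue, while 39 in flag and 10 in seedling leaves had an unadjusted p under 0.05 without replicate 1, and 23 and 23 without replicate 2. OsC3H54 fell by 1.53 ± 0.16 on the log2 scale in flag leaves (limma adjusted p = 3.01e-06), PSII-S rose by 0.78 ± 0.19 in seedling leaves (adjusted p = 0.0382) and PibH8 (the probe set of larger ranges) fell by 1.13 ± 0.26 there (adjusted p = 0.0258).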

How the data were processed

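RNA of flag leaves and seedling leaves was hybridised to 40 Affymetrix rice arrays, 1 per sample. The deposited values are signal intensities on a linear scale, which the authors extracted with GCOS by the MAS5 algorithm (version not given in the sources used here) and scaled to a target of 500 on each array. No further normalization was applied, and 187 control entries of 57381 per array were left out. Scaling each array to 1 mean makes levels relative to the sum of the other signals. Sampling hours follow the time table of the study, since the labels write 12:00am for both noon samples and describe every sample as seedling leaves at 8 am.

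The members and the gene lists were chosen with earlier results of these data known, and the timing that chose the members was not tested. Level and day differences were tested on log2(signal + 32) by limma 3.58.1 (R 4.3.3), with a mean for each tissue and time point, over 24514 probe sets whose signal averaged at least 100, and adjusted by Benjamini-Hochberg at 0.05. Tables and figures were made with Python 3.11.15, numpy 2.4.6, pandas 2.3.3 and matplotlib 3.10.9. The level test was checked on simulated data with noise independent between arrays, and the day tests were not checked so. That check cannot show whether the p-values hold for arrays that deviate together. The constant of 32 shrinks differences of low signals. The study has 2 replicates a time point, and deviations of arrays with the same replicate number within a tissue correlated at 0.20 to 0.45 in flag leaves and 0.28 to 0.55 in seedling leaves (45 pairs each), so the numbers pair time points within a tissue. Between the tissues these correlations ran from -0.14 to 0.04.

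Genes come from the array annotation with symbols of RefSeq (ASM3414082v1), which gave no descriptions here, so a member counted as informative when its gene has a name. Named were the 12 informative members of largest smaller range, up to 3 per pair of hours with at least 8 members, up to 3 per gene list, the 2 inside the threshold, and the 3 highest called in each tissue. The lists that were planned over descriptions matched few genes and were taken by symbol. Further families were added by symbol that were not planned as lists of their own. Among them are oxophytodienoate reductases, glutaredoxins, glutathione transferases and CCCH zinc finger proteins. Each of these families holds a member, which is counted in its share. Lists with no match or member that the text does not give are not reported, and no sequences or promoter motifs were analysed here. Alternatives were other constants, the linear scale, quantile normalization, other floors, a replicate block, a cosine model, and leaving out replicates, days, 40 h or 44 h arrays.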

Additional observations from a re-analysis of the deposited data

Results flagged for a closer look

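The change from the first to the second day differed between the tissues for 20 of the 150 probe sets, 6 with a more upward and 14 with a more downward change in flag leaves (interaction contrast in limma, adjusted over 24514 probe sets, of which 2.24% were called). With the replicate block 35 were called, against 6.85% of all tested. Without replicate 1 or without replicate 2, in limma fits with hour and day terms, 0 were called, while 34 and 32 had an unadjusted p under 0.05. The day difference in flag leaves minus that in seedling leaves was -1.42 ± 0.27 on the log2 scale for PSII-S (limma adjusted p = 0.00578), -1.48 ± 0.23 for OsC3H54 (adjusted p = 9.16e-04) and -1.23 ± 0.31 for the last probe set but one by range, which has no gene (adjusted p = 0.0339). For PibH8 (the probe set of larger ranges) it was 1.63 ± 0.37 (adjusted p = 0.0186). For PSII-S the second day minus the first was -0.64 in flag leaves, which did not pass the test, and 0.78 in seedling leaves, which did.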

How the results depend on the processing

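Rerun in full with other settings, the choice of 150 probe sets took 13 of them again on the linear scale and 88 with 8 h to 28 h only. With the second day in place of the first, except for the seedling 20 h arrays, it took 91. It took 97 with the seedling 44 h arrays kept and 92 to 96 with a single replicate. With the seedling floor set without the 44 h arrays it took 148, and under the remaining settings between 120 and 139. The number of the 150 with hours 8 h or 12 h apart stayed between 113 and 150 under all 11 settings. The called level differences were 59 higher and 65 lower in flag leaves. A cosine model of all arrays gave 46 higher and 58 lower, and the same model without one replicate 35 to 37 higher and 45 to 53 lower. With the replicate block 60 were higher and 66 lower, so that setting changed no direction count by over 1.5 times. The block takes the difference between replicate numbers out of the error, so it does not make the standard errors allow for the pairing. Quantile normalization gave 66 higher and 62 lower and moved the median of all probe sets to 0.10.

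The alternatives of the day comparisons were chosen after seeing the data. With the replicate block they gave 38 (flag leaves), 20 (seedling leaves) and 35 (difference between tissues) calls. With no filter on low signals they gave 15 in flag leaves and 12 for the difference. Without replicate 1 or replicate 2 they gave 0 in each, in fits with 1 array a time point and with hour and day terms. The cause of these changes was not tested.

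Among named genes, the sign turned only for 4 level differences that had not passed the test. DREB1A became 0.0367 with a constant of 64, 0.0755 with quantile normalization, 0.0244 in the cosine model, 0.44 in that model without replicate 2 and 0.22 without the 44 h arrays. GRXC1 became 0.0650 in the cosine model and 0.48 in that model without replicate 2, and OsTIFY11e 0.0260 without the 44 h arrays. OsTIFY6b became 0.00508 with a constant of 64, 0.14 with quantile normalization, 0.0705 without the 44 h arrays and 0.00346 without those at 40 h.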
